A study of Drosophila melanogaster with 2 samples.

Results

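The genes examined were 10 members of the MSL and NSL complexes of Drosophila melanogaster. They were chosen by name from 18164 annotated genes on 6 chromosome arms (2L, 2R, 3L, 3R, 4 and X). They were msl-1, msl-2, msl-3, mof and mle, which encode the 5 MSL proteins, the non-coding RNAs roX1 and roX2, and nsl1, MBD-R2 and Rcd1, which encode NSL proteins. Each was searched for binding sites of Sry-delta, a zinc finger transcription factor, within 500 bp of any annotated start site and within the gene body. Binding had been mapped by chromatin immunoprecipitation and sequencing (ChIP-seq) in whole embryos of both sexes aged 0 to 24 h. The data form 1 group of 2 libraries, labelled biological replicates 3 and 4. All embryos came from the transgenic strain Sry-delta-GFP, in which a GFP tag is fused to the C-terminus of Sry-delta. The labels' description gives an antibody against GFP for the precipitation, while their antibody field names Sry-delta. Which is meant could not be settled here, and with the latter untagged Sry-delta could be precipitated too. The labels name neither the promoter of the transgene nor the state of the endogenous gene. No untagged, input or mock library was analysed here, so there was no comparison between groups. Male and female embryos were mixed, so binding in the sexes cannot be told apart.

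The MSL complex assembles in male flies on the single X chromosome and raises its transcription to the level of the paired X chromosomes of females. MSL1 is its scaffold, MSL2 its male-limited subunit, MSL3 a chromodomain protein, MOF a histone acetyltransferase and MLE an RNA helicase that remodels the roX RNAs for their incorporation. The NSL complex shares MOF, is present in both sexes and occupies promoters of housekeeping genes on all chromosomes. NSL1 is its scaffold, and MBD-R2 and Rcd1 are further subunits.

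Sequences at 7 places in or beside these genes are printed below, and they were picked after the motif matches had been seen. A summit is the position of highest enrichment within a peak. The stretch within roX1 lay at the summit of a peak that the depositors did not keep as reproducible. The stretch near the 3′ end of roX2 held no summit. Every sequence is from the Release 6 genome (dm6), 5′ to 3′ on the strand of its gene. Only the motif named for it here is in capitals. In the 120 bases before the start of msl-3 (chr3L:7125534-7125653, minus strand), the capitals mark GGTCACAC, the core of Motif 1, and TATCGATA, the DNA replication-related element (DRE). In the 100 bases before the start of MBD-R2 (chr3R:12356266-12356365, minus strand), they mark a DRE. In the 120 bases before the start of msl-1 (chr2L:18688801-18688920, minus strand), they mark a match to the 13-base Sry-delta in vitro consensus with 2 mismatches, read here on its reverse strand. In the 101 bases around a summit within roX1 (chrX:3861444-3861544, minus strand), they mark a match to that consensus with 1 mismatch. In the 44 bases between the start of msl-2 and that of its neighbour (chr2L:3466113-3466156, minus strand), they mark a Motif 1 core. The E-box CAGCTG there, which contains the summit, is left in lower case. In the 100 bases around the start of roX2 (chrX:11579005-11579104, plus strand), they mark a Motif 1 core. In 82 bases near the 3′ end of roX2 (chrX:11580203-11580284, plus strand), they mark 2 GA repeats, GAGAGAGA on either strand.
msl-3: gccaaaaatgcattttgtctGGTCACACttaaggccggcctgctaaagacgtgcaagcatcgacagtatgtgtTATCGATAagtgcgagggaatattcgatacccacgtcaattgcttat
MBD-R2: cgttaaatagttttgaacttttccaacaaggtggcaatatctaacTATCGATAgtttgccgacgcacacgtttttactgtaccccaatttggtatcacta
msl-1: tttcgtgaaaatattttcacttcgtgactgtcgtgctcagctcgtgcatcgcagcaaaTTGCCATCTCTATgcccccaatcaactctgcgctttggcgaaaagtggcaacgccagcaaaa
roX1: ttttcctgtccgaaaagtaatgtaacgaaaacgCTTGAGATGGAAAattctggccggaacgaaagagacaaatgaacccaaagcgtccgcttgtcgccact
msl-2: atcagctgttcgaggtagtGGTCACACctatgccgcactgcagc
roX2 start: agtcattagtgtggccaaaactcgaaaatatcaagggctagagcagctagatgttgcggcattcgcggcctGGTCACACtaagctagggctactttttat
roX2 GA repeats: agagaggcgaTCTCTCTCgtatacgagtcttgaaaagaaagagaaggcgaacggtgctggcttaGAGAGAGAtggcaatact

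Of the 10 genes, 8 had a summit of the optimal set, the 6318 peaks that the depositors kept as reproducible, within 500 bp of a start site. Of the MSL proteins, 4 of 5 were bound in this sense, of the NSL proteins 2 of 3, and of the roX RNAs 2 of 2. The genes without an optimal summit there were mle and Rcd1. By the same rule 39.0% of the 13945 protein-coding genes were bound, 8.65% of the 3261 non-coding RNA genes and 31.8% of all annotated genes. The 6 bound genes among the 8 protein-coding ones and both roX genes are counts of a short list chosen by name, and no test was made on them.

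Signal differed widely among the bound genes. The deposited signal of a peak is the authors' measure of its strength, with 1 scale per list. In the optimal set it ran from 99.81 to 7028 with a median of 238.5. Among the bound genes the highest signal was 2334, at msl-3, and the lowest was 124.9, at roX1. The median of the 8, the roX RNAs included, was 282.1, and that of the 6 bound protein-coding members was 635.0. Over all 5445 bound protein-coding genes the median was 385.7, with quartiles at 199.7 and 921.8, and 3 of the 6 lay above that median and 3 below it. The order of the members by signal was msl-3, msl-1, nsl1, MBD-R2, mof, msl-2, roX2 and roX1.

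**Figure D1:**
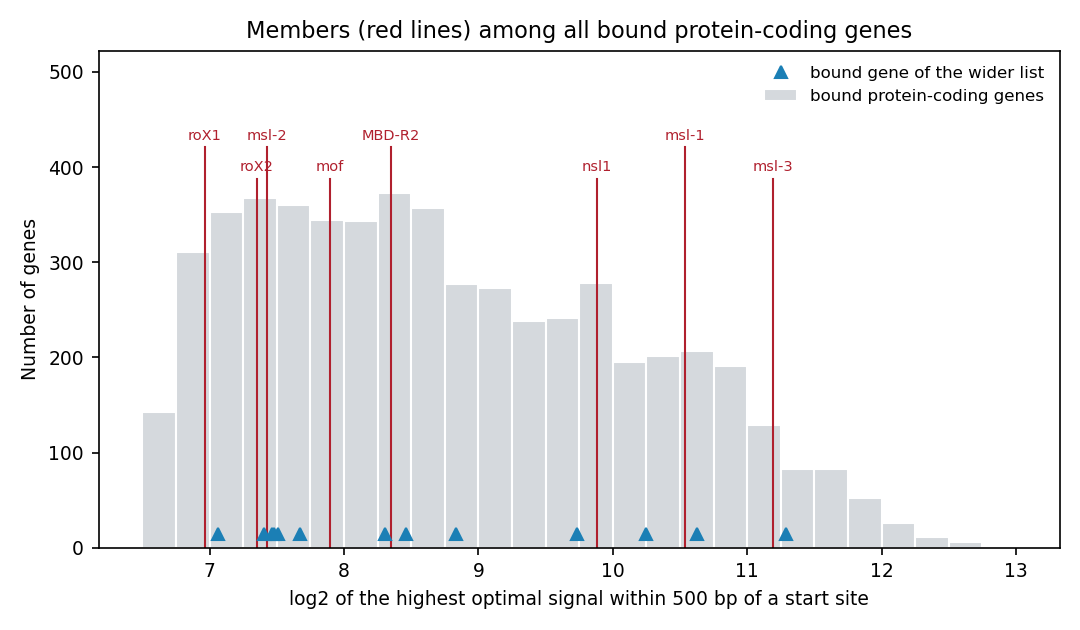
Histogram of the log2 highest optimal signal within 500 bp of a start site (x axis) over 5445 bound protein-coding genes (y axis, number of genes). Red lines mark the 8 bound members, the roX RNAs included, and blue triangles the 13 bound genes of the wider list; msl-3, msl-1 and nsl1 lie above the upper quartile of 921.8, and roX1, roX2 and msl-2 below the lower quartile of 199.7.

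The gene for the chromodomain subunit, msl-3, on 3L, had the highest signal. Its peak (chr3L:7125183-7125881) had an optimal signal of 2334, rank 191 of 6318, and its summit lay 39 bp upstream of the start. The signal was 1093 in replicate 3 and 1251 in replicate 4, where the peak ranked 179 and 210 of 30000. The libraries gave it nearly the same rank, and their summits were 10 bp apart. The DRE printed above lay 4 bp from the summit, centre to summit, and the Motif 1 core 57 bp from it. Of all optimal summits with a DRE within 100 bp, 49.16% had it within 25 bp. The msl-3 summit lay 333 bp from the start of BBS1, so it counts for both genes. BBS1 is transcribed the other way from a start 372 bp from that of msl-3.

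The scaffold gene msl-1, on 2L, was next. Its peak (chr2L:18688572-18689154) had an optimal signal of 1487, rank 496, with a summit 56 bp upstream of the start. The signal was 672.7 in replicate 3 and 819.8 in replicate 4, at ranks 489 and 521, and the replicate summits were 13 bp apart. The consensus match lay with its centre on the summit, 1 bp from the summit of replicate 3 and 14 bp from that of replicate 4. Counted from 1 at the 5′ end of the consensus, with the consensus base first, its mismatches were Y1A and R11C. Of all optimal summits with a match of at most 2 mismatches within 100 bp, 36.17% had it within 25 bp. A second optimal summit, of signal 188.3 and rank 3857, lay 255 bp upstream of msl-1 and 473 bp from the start of CG10336. That summit was the weaker one in both libraries, at 110.4 in replicate 3 and 56.2 in replicate 4. It lay 199 bp from the main one in an overlapping peak.

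Of the NSL genes, nsl1, which encodes the scaffold, had the highest signal. Its peak on 3R (chr3R:15793218-15794038) had an optimal signal of 944.1, rank 920, with a summit 142 bp upstream of the start, the farthest of the 8. The signal was 395.8 in replicate 3 and 571.5 in replicate 4, at ranks 954 and 846, and the replicate summits were 46 bp apart. No DRE or Motif 1 core lay within 100 bp of it. The 7-mer CTATCGA, which shares 6 letters with the DRE, lay 77 bp away and the E-box CAGCTG 91 bp away. A second optimal peak of low signal (111.9, rank 5816) lay in an intron 801 bp downstream of the start, with 32.67 in replicate 3 and 76.12 in replicate 4. A GA repeat lay 45 bp from the summit of this second peak.

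The remaining bound protein-coding members were closer to the threshold of the set. MBD-R2, on 3R, had an optimal signal of 325.8 at rank 2433, with a summit 29 bp upstream of the start, in the peak chr3R:12356161-12356460. Its signal was 155.8 in replicate 3 and 171.9 in replicate 4, with summits 8 bp apart. The DRE printed above lay 22 bp from that summit, and both 7-mer matches there overlap the DRE.

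The acetyltransferase gene mof lies on the X chromosome, where 45.4% of 2196 protein-coding genes were bound. Its peak (chrX:5876710-5876976) had an optimal signal of 238.3 at rank 3167, and the summit lay 25 bp downstream of the start, in the 5′ untranslated region. The signal was 147.2 in replicate 3, rank 2342, and 94.38 in replicate 4, rank 4610. The deposited value was higher in replicate 3 at mof and in replicate 4 at the other 7 bound genes, but each list has its own scale. Over the optimal peaks found in both lists the median log2 ratio of replicate 4 to replicate 3 was 0.48. Relative to that median, mof lay at −1.12. Of the others, msl-3, msl-1, MBD-R2, msl-2 and roX2 also lay below it, at −0.20 to −0.35, and nsl1 and roX1 above it. None of the 7 motifs searched lay within 100 bp of the mof summit.

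Signal at msl-2, the gene of the male-limited subunit, was 171.7 in the optimal set, rank 4122. Its summit lay 41 bp upstream of the start and 4 bp upstream of that of ND-PDSW, which encodes a subunit of mitochondrial complex I (chr2L:3466086-3466231). The starts of the 2 genes are 45 bp apart and point away from each other, so the peak cannot be assigned to either. The signal was 83.36 in replicate 3 and 94.69 in replicate 4, with summits 25 bp apart. Motif 1 cores lay 20 and 70 bp from the summit, the nearer one between the starts, and an E-box lay 2 bp from it. Of all optimal summits with a Motif 1 core within 100 bp, 34.0% had it within 25 bp. For the E-box that share was 30.46%.

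Both roX genes, on the X chromosome, had low-signal peaks at their starts. The roX2 peak (chrX:11578903-11579150) had an optimal signal of 163.3, rank 4296, with 75.83 in replicate 3 and 83.15 in replicate 4. Its summit lay 23 bp upstream of the start, and the replicate summits were 26 bp apart. A Motif 1 core lay 37 bp from the summit, inside the gene. The roX1 peak (chrX:3862324-3862807) had an optimal signal of 124.9, rank 5340, with 35.69 in replicate 3 and 91.33 in replicate 4. Its summit lay 131 bp downstream of the outermost of 3 annotated starts, in an exon, and the replicate summits were 122 bp apart. The 282 bound non-coding RNA genes had a median signal of 256.0, above both values.

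**Figure D2:**
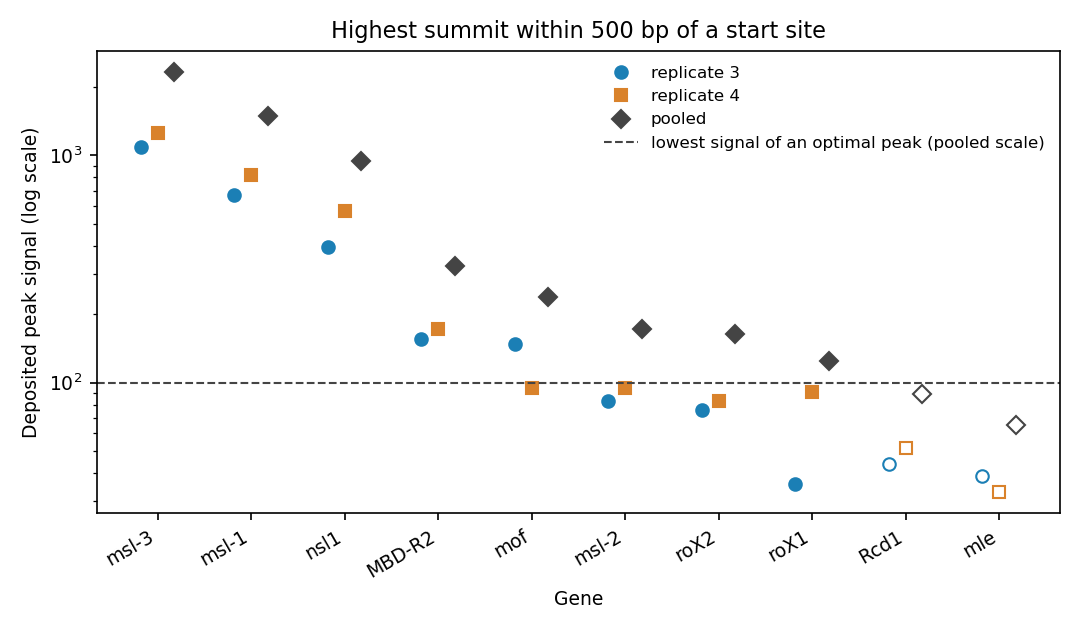
Deposited signal (y axis, log scale) of the highest summit within 500 bp of a start site for each gene (x axis), in replicate 3 (circles), replicate 4 (squares) and the pooled list (diamonds). Open symbols mark Rcd1 and mle, whose pooled signals of 88.99 and 65.37 lie under the lowest optimal signal of 99.81 (dashed line, pooled scale only); each list has its own scale.

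Within roX1 a second peak was present in all 3 lists that include peaks below the reproducibility threshold. It was not in the optimal set, and the pooled list is labelled as holding background too. The pooled signal of this roX1 peak was 67.95, rank 8472 of 30000, with a summit in an exon 567 bp downstream of the innermost start. The signal was 45.84 in replicate 3, rank 6161, and 22.11 in replicate 4, rank 15190. In replicate 3 it was higher than the peak at the start (45.84 against 35.69), and in replicate 4 it was lower (22.11 against 91.33). The consensus match printed above, with the mismatch A3T, lay 11 bp from the summit in each of these lists. The roX1 gene holds 2 further matches with 2 mismatches each, 4860 and 4502 bp downstream of the outermost start, and no list has a summit within 100 bp of either. Of 23682 pooled summits outside the optimal set, 56 (0.236%) had a match with at most 1 mismatch within 100 bp, against 1.33% of the optimal summits. No consensus match lay within 100 bp of the optimal summit of roX1.

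The strongest peak next to roX2 had its summit near the start of another gene. That optimal peak (chrX:11580178-11581080), of signal 2189 and rank 226, had a summit 43 bp away from the nod start; nod encodes a kinesin-like protein. The summit lay 297 bp beyond the 3′ end of roX2. It had a signal of 1027 in replicate 3 and 1177 in replicate 4, far above those at the start of roX2 in both libraries. The peak itself reached into roX2. The GA repeats of roX2 are of the kind found in the sites where the MSL complex enters the X chromosome. They lay 516 and 462 bp from the nod summit, inside this optimal peak but outside the motif window. A Motif 1 core lay 75 bp from the nod summit.

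Similar neighbours stood downstream of mle and mof. The peak beyond mle had a signal of 2232 (rank 212, with 1140 in replicate 3 and 1103 in replicate 4), with a summit 23 bp from the start of BubR1, a spindle checkpoint gene, and 449 bp beyond the end of mle. The peak beyond mof had a signal of 411.2 (rank 1967, with 185.5 and 229.1), 7 bp from the start of GAA1 and 476 bp beyond the end of mof. A DRE lay 6 bp from the summit at BubR1 and 20 bp from that at GAA1. Neither summit was counted for mle or mof, since both lay more than 500 bp from their start sites and outside the genes.

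The members outside the optimal set, both on 2R, had low-signal peaks listed in both libraries. The pooled list is labelled as peaks and background, so whether these are binding sites was not settled here. At Rcd1 the pooled signal was 88.99, rank 6864, with 43.84 in replicate 3 and 51.46 in replicate 4. Its summit lay 157 bp upstream of the inner of 2 annotated starts, within the coding sequence of the longer transcript. At mle the pooled signal was 65.37, rank 8729, with 38.84 in replicate 3 and 33.09 in replicate 4, and its summit lay in an intron 187 bp downstream of the outer start. The replicate 3 signals of both genes were higher than that of roX1 (35.69), which is in the optimal set, and the replicate 4 signals were lower. In the pooled list and in each replicate list all 10 genes had a summit within 500 bp of a start. The background in those lists is high: 58.1% of protein-coding and 30.2% of non-coding RNA genes in the pooled list, and 58.4% and 58.3% of protein-coding genes in replicates 3 and 4.

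**Figure D3:**
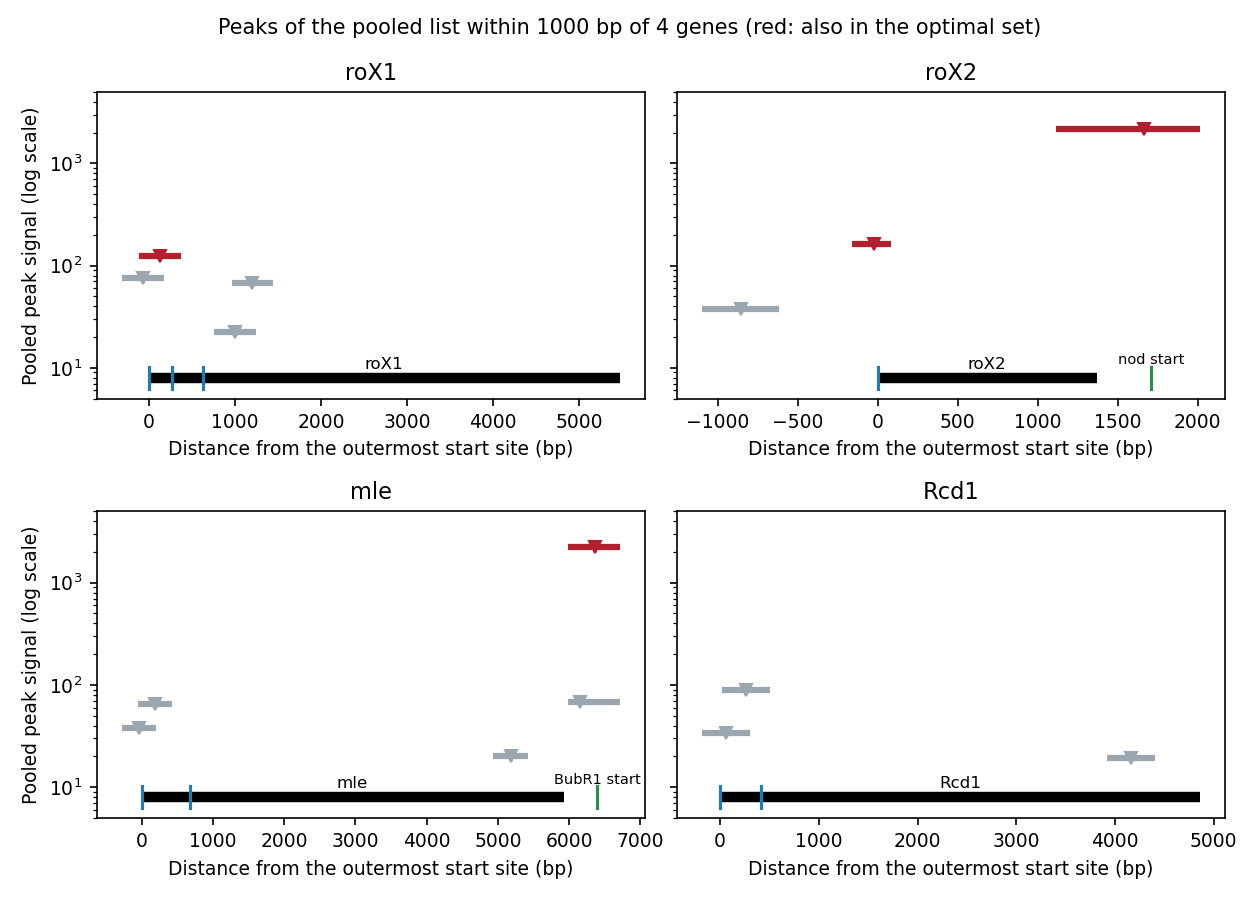
Peaks of the pooled list (horizontal bars, with triangles at their summits) by signal (y axis, log scale) and distance from the outermost start site (x axis, bp, positive in the direction of transcription) at roX1, roX2, mle and Rcd1. Red peaks are also in the optimal set; black bars show the genes, blue ticks their start sites and green ticks the starts of nod and BubR1, where the peaks of signal 2189 and 2232 lie.

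Summits of the bound members lay close to the starts. Their distances ran from 23 to 142 bp with a median of 40 bp, and 6 of 8 lay upstream, all but those of mof and roX1. Over all bound protein-coding genes the median distance was 66 bp and 88.1% lay upstream. Of the 6 bound protein-coding members, 2 (msl-2 and msl-3) shared their highest summit with another protein-coding gene, against 58.66% of all bound protein-coding genes.

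**Figure D4:**
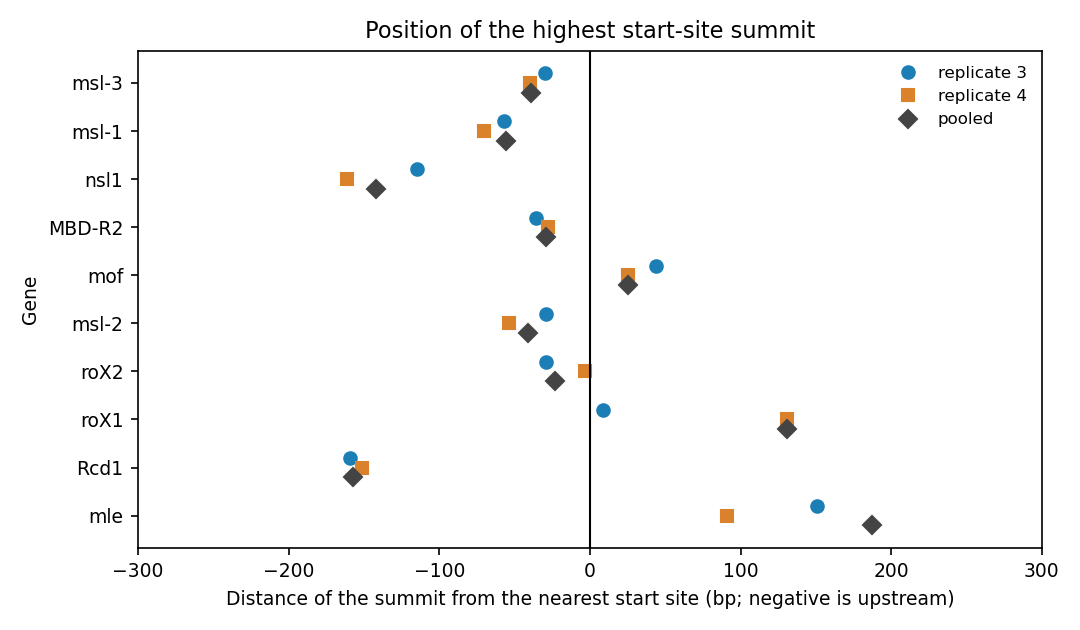
Signed distance of the highest start-site summit from the nearest start site (x axis, bp, negative is upstream) for each gene (y axis) in replicate 3, replicate 4 and the pooled list. The 3 symbols lie close together at msl-3 and MBD-R2 and apart at roX1, whose replicate summits were 122 bp apart.

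Within the genes, 3 of the 10 had an optimal summit: mof and roX1 near their starts, and nsl1 in its intron. The background was 15.7% of protein-coding and 5.46% of non-coding RNA genes. Farther than 500 bp from any start, nsl1 was the only member with an optimal summit in its body. In the pooled list 7 members had a summit inside the gene, where 44.5% of protein-coding genes did. There were 13 such summits more than 500 bp from a start, with signals from 18.77 to 111.9 and a median of 21.6, and the lowest signal in that list was 18.16.

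The libraries gave like values at most of the members. Over the 6240 optimal peaks whose summit lay in a peak of each replicate list, the median log2 ratio of replicate 4 to replicate 3 was 0.48 with an SD of 0.65. The ratios were 0.20 at msl-3, 0.29 at msl-1, 0.53 at nsl1, 0.14 at MBD-R2, 0.18 at msl-2 and 0.13 at roX2, all within 1 SD of that median. At mof the ratio was −0.64 and at roX1 it was 1.36, each more than 1 SD away, in opposite directions. The replicate summits of the members other than roX1 were 8 to 46 bp apart, against a median of 17 bp and a 90th percentile of 66 bp over all of these peaks. At roX1 the gap of 122 bp went with a difference in how the region was divided: the pooled and replicate 4 lists hold 2 overlapping peaks there, and replicate 3 holds 1 between them.

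**Figure D5:**
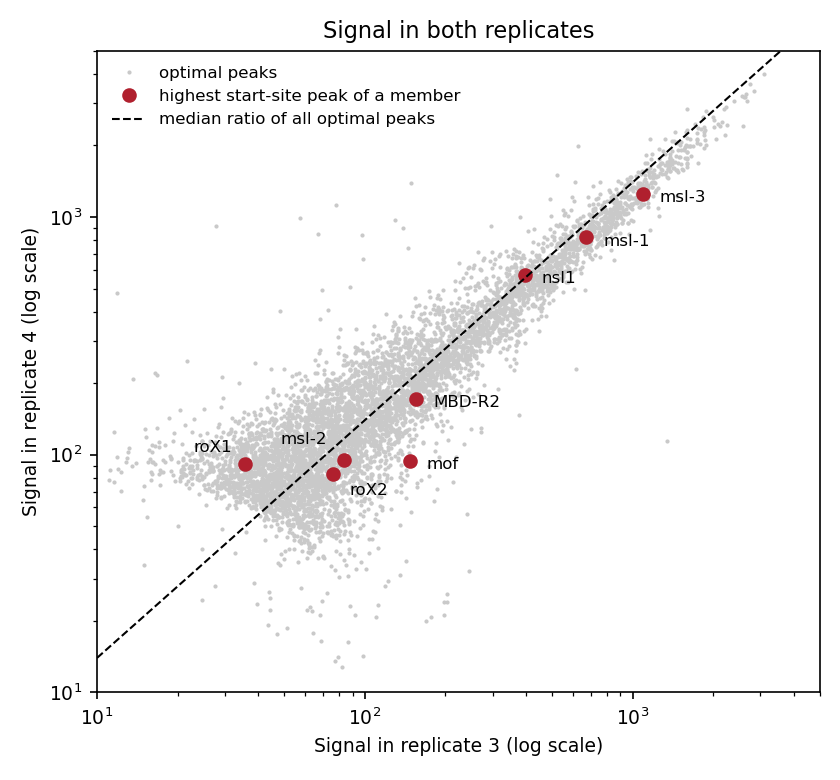
Signal in replicate 3 (x axis, log scale) and replicate 4 (y axis, log scale) of 6240 optimal peaks found in both lists (grey) and of the highest start-site peak of the 8 bound members (red); the dashed line is the median ratio. The points of msl-3, msl-1 and nsl1 lie in the narrow upper part of the cloud, and those of roX1 and mof lie to opposite sides of the line.

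Overlapping summits had a regular spacing, at the members and at genes of the wider list described below alike. In the pooled list 4 members had a pair of overlapping start-site peaks, at 199 bp in msl-1, 224 bp in mle, 201 bp in roX1 and 200 bp in Rcd1. In each pair the higher summit was the one on the left in genome coordinates. Whether the lower summit of such a pair is a separate binding site was not tested.

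Motif matches were counted within 100 bp of the highest start-site summit of each of the 8 bound members, on both strands. The motifs were the DRE, the GA repeat, the Motif 1 core, the 7-mer, the E-box, the TATA box (TATAAA) and the Sry-delta consensus with at most 2 mismatches. At least 1 of the 7 was found at 6 of the 8, all but mof and roX1, against 3791 of the 6318 optimal summits and 54.6% of the 5′ ends of protein-coding genes. A DRE was found at msl-3 and MBD-R2. Among all optimal summits 15.0% held a DRE, among 5′ ends 7.84% and among the remaining pooled summits 0.887%. A Motif 1 core was found at msl-2, msl-3 and roX2, where the shares were 8.66% of optimal summits and 6.76% of 5′ ends. The consensus was found at msl-1, where the shares were 6.7% and 4.04%. The 7-mer was found at MBD-R2, within the DRE and its flank, and at nsl1, with shares of 19.0% and 10.5%. The E-box was found at msl-2 and nsl1, with 14.1% and 13.8%, and nsl1 enters the count through the E-box and the 7-mer alone. The TATA box was found at msl-3, MBD-R2 and roX2, with 26.1% of optimal summits and 29.2% of 5′ ends. A GA repeat was found at none of these start-site summits, and at 1.38% of optimal summits and 1.69% of 5′ ends. The GA repeat at the intronic nsl1 peak is outside this count.

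Partners and regulators of the MSL complex and further NSL genes formed a wider list of 14, of which 13 had an optimal summit within 500 bp of a start, beside the 39.0% of protein-coding genes given above. Its median signal among bound genes was 315.7, against 385.7 over all bound protein-coding genes. Of 9 partners and regulators all were bound. Top2, a topoisomerase, had a signal of 2504, with 1101 in replicate 3 and 1411 in replicate 4. The nuclear pore genes Mgtor and Nup153 had signals of 1577 and 851.5. JIL-1, a histone kinase, had 352.8 and Clamp, whose zinc finger protein binds GA repeats, 204.2. Su(var)3-7, a heterochromatin protein gene, had 178.0. The genes of the proteins that repress msl-2 RNA in females, Sxl, Unr and how, had 315.7, 177.0 and 169.4. Some of these summits count for a neighbour too. The Nup153 summit lay 45 bp from its own start and 19 bp from that of CG9784. For Su(var)3-7 the distance was 180 bp, against 123 bp to the start of Ravus. The Clamp summit lay 130 bp from its own start and 395 bp from that of the non-coding RNA gene CR44809.

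Of 5 further NSL and associated genes 4 were bound. Chro, which encodes a chromodomain protein, had a signal of 1218, with 297.2 in replicate 3 and 919.3 in replicate 4. The zinc finger gene pzg had 455.7, wds, a WD40 repeat gene, had 182.4, and dgt1 had 134.0. The pzg summit lay 153 bp from its own start and 16 bp from that of CG12974. The wds summit lay 193 bp from its own start and 88 bp from that of CG13760. The Chro summit, 98 bp from its own start, lay 203 bp from that of Ssl1, so these peaks count for both genes. At dgt1 replicate 3 had a signal of 56.91 and replicate 4 listed no peak within 500 bp of the start. Rcd5 was not in the optimal set, with a pooled signal of 48.53.

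Genes most like the members at both ends of the range were taken by the Euclidean distance of log2 signals over the 2 replicates. For msl-3 they were Snx3 and Vha55, which share a summit with 1104 in replicate 3 and 1235 in replicate 4, and CG31344 with 1093 and 1227. For roX1 they were Sirt6 and pont, which share a summit with 36.26 and 91.78, and sn with 35.9 and 93.68. With 2 libraries, likeness here means only a peak of about the same signal in each.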

How the data were processed

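The depositors made 4 dm6 peak lists in the narrowPeak layout, per the accompanying README files. A control was used in calling the replicate lists (1 library each) and the pooled list (both libraries). The optimal set was drawn from these by the irreproducible discovery rate. The pooled list is labelled as peaks and background. The sources used here give no caller, aligner, version or threshold. Each deposited signal value is the authors' measure of peak strength, with 1 scale per list. The optimal peaks carry their pooled signals. Read totals were not analysed here, so depth is unknown. The libraries are labelled biological replicates, and nothing further is given on their origin.

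A summit was the peak start plus the deposited offset, in 1-based dm6 coordinates, on 6 arms, with the Ensembl release 115 annotation and the Release 6 sequence. Replicate signal at an optimal summit was that of the peak containing it with the nearest summit. Motifs were sought on both strands in 201 bp windows. The summit assignment was tested on simulated data. Analyses used Python 3.11.15, pandas 2.3.3, numpy 2.4.6 and matplotlib 3.10.9.

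The members and lists were chosen with earlier results of these data known. Named genes were the 10 members, bound genes of the wider list and genes sharing a member's summit. The 3 protein-coding genes most like the members of highest and lowest signal were also named. Added after their values were seen were nod, BubR1, GAA1, Rcd5 and genes sharing a summit of the wider list. The roX1 peak within the gene and the spacing of overlapping summits were added in the same way. Alternatives covered the window, start sites, overlap, peak set and single replicates.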

Additional observations from a re-analysis of the deposited data

How the results depend on the processing

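The count of 8 members bound stayed at 8 with windows of 250 and 1000 bp, with the 5′ end of the gene only, with peak overlap in place of the summit and with 1 summit per region, and mle and Rcd1 were the genes not bound in each. Among the optimal peaks above the median signal it was 4 of 10, without msl-2, mof, roX1 and roX2, beside 26.5% of protein-coding genes. The wider list fell to 7 of 14 in that setting. In the pooled list the count of members was 10, beside 58.1% of protein-coding genes. In the leave-one-out settings, which take the highest peaks of 1 replicate in the number of the optimal set, it was 7 to 8, and roX1 was not bound without replicate 4. The wider list ranged from 12 to 14 in the other settings, and the background of protein-coding genes from 26.5% to 58.1% over all settings. Members with an optimal summit inside the gene were 3, also without either replicate, and 7 in the pooled list. When any overlap of the peak was counted they were 8. Those 8 were the members bound at the start, whose peaks span the start, so the rise tells nothing of binding farther inside the genes. No share of all genes under the overlap rule is given here. Motif matches at 6 of the 8 bound members became 5 of 8 within 50 bp and stayed at 6 of 8 with 1 summit per region. Among peaks above the median signal they were found at all 4 members bound there. The shares of all optimal summits in these settings are not given here. The rank of the roX1 start peak was 5340 in the optimal set, 7679 in replicate 3 and 4729 in replicate 4. No paired analysis was possible because there is only 1 group. Depth is unknown, and 2 libraries of 1 group give no test of reproducibility for a single gene.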
